A study of Mus musculus with 10 samples.

Results

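The hypothalamus of young adult male mice was compared between offspring of parents on a low-protein (LP) and on a normal-protein (NP) diet, with 1 RNA sequencing library on each side. These are the 2 male hypothalamus libraries of a series of 10, chosen by their diet and region labels and by no measured value. The other 8 libraries came from prefrontal cortex and hippocampus of both sexes. All animals were CF1 mice, an outbred stock, taken at postnatal day 56. Parents ate the NP diet for the 5 days before mating and were then randomised to NP or LP at the start of a mating period of 5 days. Dams kept their diet while pregnant and nursing, pups were weaned at postnatal day 21, and all offspring of both groups ate NP from then on. Both groups had therefore been on the same diet for 5 weeks when the tissue was collected, and the groups differed in the diet before weaning. Whether each library is 1 animal or a pool is not given in the sources used here. The date-like part of the code in the title of the LP hypothalamus library occurs in no other title, while the other 9 libraries share 1, and what the code denotes is not given.

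The hypothalamus is a small region at the base of the brain made up of nuclei that control feeding, water balance, body temperature, reproduction, sleep and the release of pituitary hormones. Many of its neurons are known by the peptide they secrete: oxytocin and vasopressin neurons of the paraventricular and supraoptic nuclei project to the posterior pituitary, orexin and melanin-concentrating hormone neurons of the lateral hypothalamus act in arousal and feeding, and neurons of the arcuate nucleus that make agouti-related peptide or pro-opiomelanocortin drive and restrain food intake. Each of these peptides is made by a small population of cells.

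The NP library held 16265481 counts over 25595 detected genes and the LP library 14688965 counts over 25072 genes, against 7871010 to 16265481 counts over the series. A gene with 0 counts lay below 3 counts, which is 0.184 CPM in the NP and 0.204 CPM in the LP library, from counting error only. CPM is the count of a gene scaled to the library's total and expressed on the usual counts-per-million scale. Both libraries held the defining genes of the labelled region. Pmch, which encodes melanin-concentrating hormone, stood at 134.9 CPM in the NP and 78.7 CPM in the LP library and at no more than 0.308 CPM in the other 8. Nkx2-1, a transcription factor of the ventral forebrain, stood at 44.5 and 55.5 CPM against at most 0.889 CPM. Slc17a7, the vesicular glutamate transporter of cortex and hippocampus, showed the reverse, with 3.32 and 4.02 CPM against 1740 to 1990 CPM in the libraries in which it was measured.

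With 1 library a side there is no replicate check, and no p-value is given. Each ratio is the LP library over the NP library, each interval is an exact 95% interval that covers counting error only, and a gene is called higher or lower in LP where its CPM differed by at least 1.5-fold, its mean was at least 1 CPM and the 2 Poisson intervals were separate. A gene below 1 CPM in 1 library can reach this mean only through the other, so its direction is then fixed by the filter. These calls describe 2 libraries and not the diets. In tissue of mixed cells, fewer cells of a type and less RNA per cell cannot be told apart.

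Of 16313 genes with a mean of at least 1 CPM, 565 were higher in the LP library (3.46%) and 145 were lower (0.889%), which is 4.35% in either direction. The median log2 ratio over these genes was -0.001 and 49.8% were positive, so the excess of higher calls lay in the tail and not in the centre of the distribution. The middle 95% of log2 ratios ran from -0.58 to 0.83. At a mean of at least 5 CPM, 421 genes were higher and 76 lower. Past 2-fold there were 233 higher and 60 lower genes, and past 4-fold 14 in each direction. The shares called in the other 4 pairs of LP and NP libraries were 2.4% in prefrontal cortex and 1.23% in hippocampus of males, and 1.36% and 1.04% in females. At the border of the call, Notch2 (1.501-fold higher), Hba-a2 (1.501-fold lower) and Zmynd10 fell just inside, and Fxyd5 (1.499-fold), Acvrl1 (1.496-fold) and Cercam just outside.

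**Figure D1:**
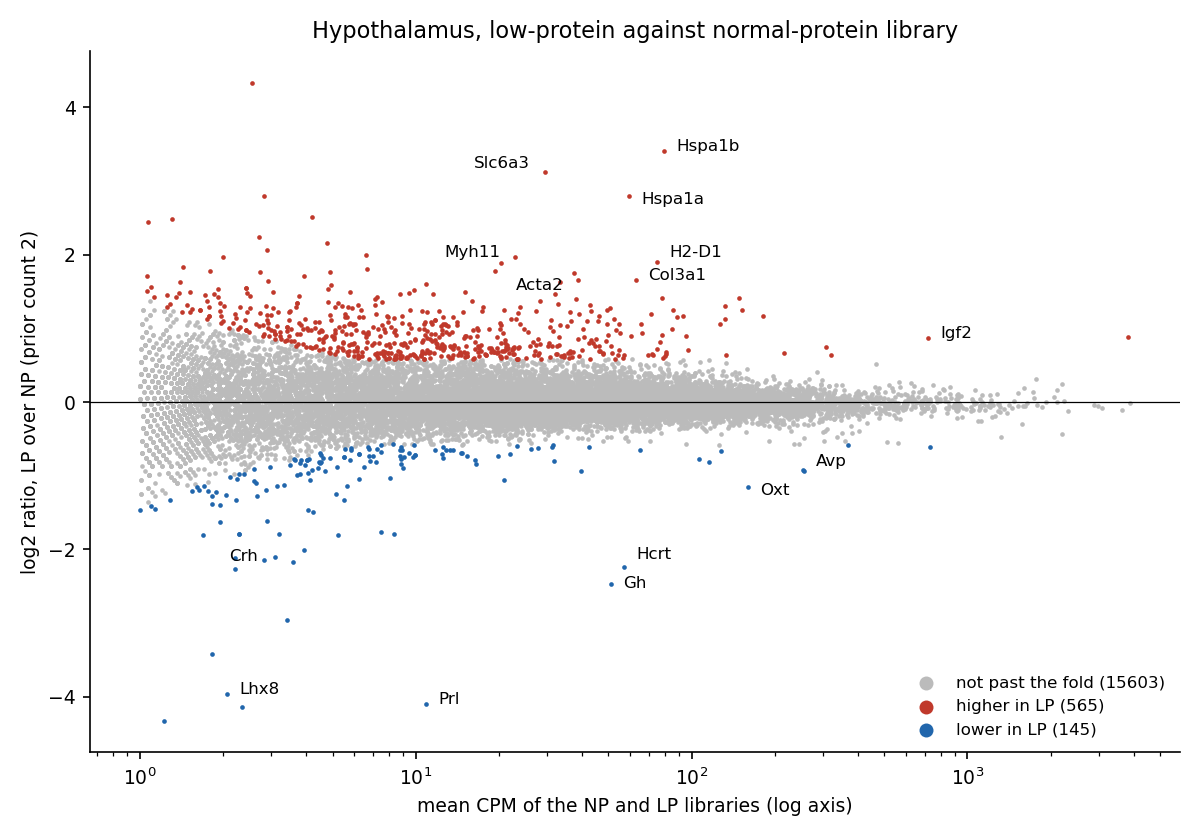
Log2 ratio of the LP over the NP hypothalamus library (vertical axis) against mean CPM (horizontal log axis) for the 16313 genes with a mean of at least 1 CPM, 1 point a gene, with the 565 higher and 145 lower genes coloured. Higher calls outnumber lower calls, while the cloud as a whole is centred at a log2 ratio of -0.001.

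The genes with the largest ratios among those with a mean of at least 5 CPM named the main groups of the comparison. Among the 10 highest were the heat shock genes Hspa1b and Hspa1a, the dopamine transporter Slc6a3, the class I histocompatibility genes H2-Q2 and H2-D1, the smooth muscle genes Myh11 and Acta2, the retinoic acid hydroxylase Cyp26b1, and the pseudogene Glns-ps1. The 10 lowest were the pituitary hormones Prl and Gh, the orexin precursor Hcrt, the choline transporter Slc5a7, the transcription factors Lhx6 and Meis2, the oxytocin precursor Oxt, and 3 predicted genes, Gm3383, Gm3194 and Gm26703. Their log2 ratios ran from 1.75 (Acta2) to 3.41 (Hspa1b) and from -1.14 (Gm26703) to -4.09 (Prl).

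Among the peptides, 8 precursors made mainly by neuroendocrine and lateral hypothalamic neurons were lower in the LP library, and those of the arcuate feeding neurons were not past the fold. Of 9 neuroendocrine peptide precursors tested, 5 were lower and 0 higher, with a median log2 ratio of -0.65. Of 4 lateral hypothalamic precursors, 3 were lower, with a median of -0.79. Of 4 arcuate precursors none was called and the median was 0.11. Over all genes, 0.889% were lower. The promoters of Hcrt and Oxt, the 2 precursors among the 10 lowest genes above, are given first. Each is the RefSeq window from 250 bases before to 50 after the gene start, on the strand of the gene, in build GRCm38.p6. For Hcrt it is chr11:100762882-100763181 on the minus strand, with capitals marking the only match to TATAAA on either strand, which 13.6% of 32851 promoters hold. For Oxt it is chr2:130575919-130576218 on the plus strand, with capitals marking 5 matches to TGACC on either strand, the core letters of a nuclear receptor half-site, which 40.5% of promoters hold. Of the neuroendocrine precursors with a promoter window, 5 of 8 hold the TGACC match, namely Gal, Ghrh, Kiss1, Oxt and Trh. Among them Ghrh was not called, and Kiss1 was not analysed here. The TATAAA match is in 1 of these 8, Ghrh, and in 2 of 4 lateral hypothalamic precursors, Hcrt and Pmch. A match is a description of the sequence and not a shown binding site.
Hcrt: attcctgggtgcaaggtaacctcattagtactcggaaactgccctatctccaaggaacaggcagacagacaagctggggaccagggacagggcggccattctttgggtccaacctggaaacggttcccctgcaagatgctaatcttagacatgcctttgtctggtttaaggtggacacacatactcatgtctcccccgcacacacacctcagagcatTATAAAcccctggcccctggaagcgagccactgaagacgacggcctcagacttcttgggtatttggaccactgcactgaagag
Oxt: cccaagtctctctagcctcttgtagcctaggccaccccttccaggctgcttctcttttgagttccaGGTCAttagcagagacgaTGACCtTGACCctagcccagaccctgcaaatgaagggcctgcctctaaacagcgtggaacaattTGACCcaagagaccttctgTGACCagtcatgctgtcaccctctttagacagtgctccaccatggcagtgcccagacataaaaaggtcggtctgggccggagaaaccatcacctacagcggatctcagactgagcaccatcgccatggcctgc

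Hcrt, the precursor of orexin A and B, peptides of lateral hypothalamic neurons that promote wakefulness and feeding, had 1523 counts in the NP library (93.7 CPM, 95% interval 89.0 to 98.5) and 290 in the LP library (19.7 CPM, 17.5 to 22.1). It was 4.75-fold lower in LP (95% interval 4.18 to 5.40). Per kilobase of exon it ranked 6 of the 17 peptide precursors in the NP library and 13 in the LP library, at 125 and 26.4 CPM per kilobase. Pmch, from a neighbouring population of lateral hypothalamic neurons, had 2193 and 1156 counts and was 1.72-fold lower (1.60 to 1.84). Nts, the precursor of neurotensin, had 654 and 339 counts and was 1.74-fold lower (1.53 to 1.99). The fourth member, Pdyn, the precursor of dynorphins, which orexin neurons also make, had 1801 and 1535 counts and was not past the fold (log2 ratio -0.09). Among genes of the lateral and dorsomedial hypothalamus, Lhx9, a transcription factor of orexin neurons, had 74 and 36 counts and was 1.86-fold lower (1.23 to 2.85), while Npvf (165 and 126) and Ppp1r17 (336 and 342) were not past the fold.

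Oxt, the precursor of oxytocin, had 3589 counts in the NP library (220.8 CPM, 213.6 to 228.1) and 1459 in the LP library (99.3 CPM, 94.2 to 104.5), and was 2.22-fold lower in LP (2.09 to 2.37). Avp, the precursor of vasopressin, the antidiuretic hormone, had 5402 and 2578 counts (332.3 and 175.4 CPM) and was 1.89-fold lower (1.81 to 1.99). Both genes kept a high place: per kilobase Avp was the most abundant of the 17 precursors in both libraries, and Oxt ranked 2 in the NP and 3 in the LP library. The genes lie tail to tail on chromosome 2, Oxt at 130576173 to 130577054 on the plus and Avp at 130580620 to 130582554 on the minus strand, 3565 bases apart. Their transcripts share 301 aligned bases at 88.0% identity, and how reads that fit both were counted is not given.

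Crh, the precursor of corticotropin-releasing hormone, the peptide that starts the stress hormone cascade, had 83 counts in the NP library (5.11 CPM, 4.07 to 6.33) and 16 in the LP library (1.09 CPM, 0.622 to 1.77), and was 4.69-fold lower (2.72 to 8.58). Trh, the precursor of thyrotropin-releasing hormone, had 2395 and 1233 counts and was 1.76-fold lower (1.64 to 1.88). Gal, the precursor of galanin, had 1297 and 747 counts and was 1.57-fold lower (1.43 to 1.72). The 4 other members were not called. Sst, the precursor of somatostatin, had 4250 and 2914 counts (log2 ratio -0.40), Ghrh, the precursor of growth hormone-releasing hormone, 346 and 264 (-0.24), and Tac2, the precursor of neurokinin B, 714 and 639 (-0.01). Gnrh1, the precursor of gonadotropin-releasing hormone, was the only positive member, with 27 and 42 counts and a ratio of 1.72-fold higher (1.04 to 2.90), and was not called because its Poisson intervals overlapped. Kiss1 was not analysed here.

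The arcuate feeding peptides lay close to each other in the 2 libraries. Agrp, which drives feeding, had 371 counts in the NP and 361 in the LP library, a ratio of 1.08 (0.929 to 1.25). Npy, made by the same neurons, had 1041 and 934 counts (1.01-fold, 0.921 to 1.10). Pomc, the precursor of the appetite-restraining melanocortins, had 2047 and 2093 counts (1.13-fold higher, 1.06 to 1.20), and Cartpt 2876 and 2802 (1.08-fold higher, 1.02 to 1.14). All 4 counting intervals end below 1.5-fold, and without replicates they say nothing of the spread between animals. Of 10 tested genes of the arcuate nucleus, 0 were called, and the median log2 ratio was 0.01. Over all genes 4.35% were called, so 0 calls in a list of this size is close to that share. Pmch overlaps 1 annotated gene, Parpbp, and Agrp overlaps 6, so reads of these 2 peptide genes may include others.

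**Figure D2:**
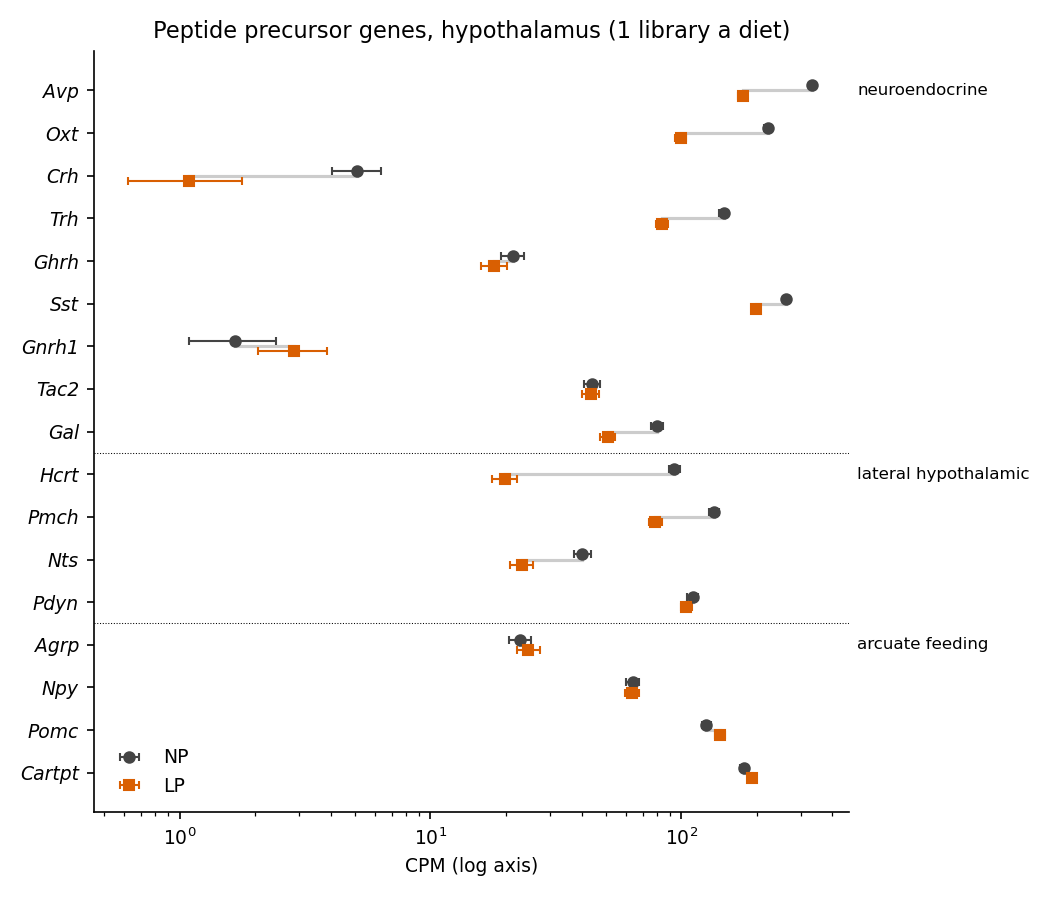
CPM (log axis) of the 17 peptide precursor genes in the NP (circles) and the LP (squares) hypothalamus library, with exact 95% Poisson intervals that cover counting error only. Hcrt, Oxt, Avp, Crh, Trh, Gal, Pmch and Nts are lower in the LP library past the fold, and Agrp, Npy, Pomc and Cartpt have nearly the same value in both.

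Genes that make and store peptides had a median log2 ratio near 0. None of 15 genes of prohormone processing and of the secretory granule was past the fold, with a median of -0.01. Over all genes 3.46% were higher and 0.889% lower, so 0 calls in a list of this size is close to that share. Cpe, the carboxypeptidase that trims peptide precursors, had 2098 and 2108 CPM, and Scg2, a granule protein, 1208 and 1226 CPM. Of 16 other neuropeptides tested, 1 was higher and 2 were lower, with a median of -0.02. Vip, the peptide of suprachiasmatic neurons that keep daily time, had 149 and 262 counts and was 1.95-fold higher (1.58 to 2.40). Ucn3, the precursor of urocortin 3, had 56 and 3 counts and a ratio of 16.9-fold lower (5.49 to 84.3), and Pnoc, the precursor of nociceptin, 550 and 321 counts and 1.55-fold lower (1.35 to 1.78).

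Of 30 receptors for peptides and feeding signals, 3 were higher and 1 was lower, against 3.46% and 0.889% of all genes, and the median log2 ratio was 0.23. Lepr, the leptin receptor, had 120 counts in the NP and 228 in the LP library and was 2.10-fold higher (1.68 to 2.64). Npr3, the natriuretic peptide clearance receptor, had 120 and 237 counts (2.19-fold, 1.75 to 2.75), and Glp1r, the receptor for glucagon-like peptide 1, 50 and 77 (1.70-fold, 1.18 to 2.48). Trhr, the receptor for thyrotropin-releasing hormone, was lower, with 190 and 106 counts (1.62-fold, 1.27 to 2.08). Among opioid genes Oprm1, the mu receptor, had 18 and 41 counts (2.52-fold higher, 1.42 to 4.66).

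Transcription factors of the peptide neurons and of other parts of the hypothalamus gave mixed values. Of the 7 paraventricular and supraoptic genes, the 4 lower ones were the peptides Oxt, Avp, Crh and Trh. Sim1, needed for the formation of these neurons, had 181 counts in the NP and 165 in the LP library (11.1 and 11.2 CPM), Otp 1089 and 918 (67.0 and 62.5 CPM), and Pou3f2 463 and 355 (28.5 and 24.2 CPM). None of these 3 was past the fold. Of 26 hypothalamic transcription factors tested, 1 was higher and 4 were lower, with a median log2 ratio of -0.01, against 3.46% higher and 0.889% lower over all genes. Among the lower ones were Lhx8 (65 and 2 counts, 29.4-fold, 7.81 to 248), Lhx6 (212 and 54, 3.55-fold, 2.62 to 4.88) and Lhx9. Lhx8 and Lhx6 are also members of the list of forebrain cholinergic neurons given below, so both lists count these calls.

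Genes of the ventromedial and mammillary nuclei were positive, mostly short of the fold, beside 3.46% of all genes higher and 0.889% lower. All 6 genes of the ventromedial nucleus were positive, with a median log2 ratio of 0.32, and none was past the fold; its defining factors Nr5a1 and Fezf1 were each 1.25-fold higher (1.08 to 1.45 and 1.10 to 1.41). All 8 mammillary genes were positive, with a median of 0.53. Foxa1, Lmx1a and Lmx1b among them also belong to the list of midbrain dopamine neurons given below. Foxb1, a transcription factor of the mammillary body, was past the fold with 228 and 322 counts (1.56-fold higher, 1.31 to 1.86). Of 8 suprachiasmatic genes only Vip was called, and the median was 0.38. Of 7 preoptic genes, Moxd1 was 1.52-fold higher (1.20 to 1.94), Gal and Nts were lower, and the median was -0.09.

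Markers of tissue next to the hypothalamus also differed between the libraries, in both directions, and their part in the peptide values was not tested. In front of and beside the hypothalamus, 8 genes of forebrain cholinergic neurons, a list put together after the values were seen, had 6 lower members. The share over all genes was 0.889%. The median log2 ratio of the list was -1.70, and its summed level was 77.1 CPM in the NP and 49.95 CPM in the LP library. Slc5a7, the choline transporter, had 133 and 33 counts (3.64-fold lower, 2.47 to 5.51), and Chat, the enzyme that makes acetylcholine, 48 and 17 (2.55-fold, 1.44 to 4.73). Gbx1 had 40 counts in the NP library and 0 in the LP library and was at least 12.05-fold lower, taken against a floor of 3 counts. Lhx6 and Lhx8, given above among the hypothalamic transcription factors, are lower members of this list as well. Gbx1 and Lhx8 were below 1 CPM in the LP library and passed the filter on the mean only through the NP library. Their negative sign was therefore fixed by the filter. Isl1, which arcuate neurons also express, was not past the fold (613 and 563 counts). Chat and Slc18a3 overlap in the genome, and their reads cannot be told apart without the counting rule.

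Telencephalic transcription factors, another list put together after the values were seen, had 3 lower genes of 7 tested, against 0.889% of all genes. The list as a whole had 3 positive and 4 negative members, a median log2 ratio of -0.02 and summed levels of 119.1 CPM in the NP and 117.4 CPM in the LP library. Among them Tbr1, of cortical and amygdalar excitatory neurons, had 61 and 10 counts (5.51-fold lower, 2.80 to 12.1), and Meis2, of the ventral telencephalon, 190 and 49 (3.50-fold, 2.55 to 4.90). In the other 8 libraries Tbr1 stood at 43.9 to 172 CPM, against 3.75 CPM in the NP and 0.681 CPM in the LP hypothalamus. Its level in hypothalamus was therefore a small part of that in cortex and hippocampus. Of 9 tested genes of cortical and hippocampal excitatory neurons, a list that also holds Tbr1, 2 were lower and 6 positive, with a median of 0.11. The cortical gene Neurod6 was at 1.23 and 1.84 CPM and not past the fold, and none of 11 striatal genes was called (median 0.06).

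Of 8 pituitary genes tested, 2 were lower in the LP library, against 0.889% of all genes. In sign 4 were positive and 4 negative, and the median log2 ratio was -0.09. Gh, growth hormone, had 1403 counts in the NP and 227 in the LP library (5.59-fold lower, 4.85 to 6.46), and Prl, prolactin, 336 and 16 (18.98-fold, 11.5 to 33.6). The other 6 tested pituitary genes were not past the fold, among them Cga, the shared subunit of glycoprotein hormones, with 134 and 96 counts, and Tbx19, of corticotroph cells, with 64 and 76. The summed level of the 10 listed genes was 126.5 CPM in the NP and 37.1 CPM in the LP library, most of it from Gh and Prl. In hippocampus these genes differed in opposite directions between the sexes. Gh had 5319 counts in the NP and 5 in the LP library of males and 2 and 58 in females, and Prl 1223 and 2 in males and 0 and 46 in females. In prefrontal cortex Gh had 55 and 29 counts in males and 1 and 6 in females, and Prl had 8 or fewer in each library.

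Behind the hypothalamus, genes of midbrain dopamine neurons were higher in the LP library. All 14 tested members were positive and 7 were past the fold, against 3.46% of all genes higher. The median log2 ratio was 0.63, and the summed level was 328.2 CPM in the NP and 551.3 CPM in the LP library. Among the called members, Aldh1a1 (66.9 and 124.8 CPM) also belongs to the retinoic acid list given below. Another, Nr4a2, also belongs to the list of immediate early and activity genes. Slc6a3, the dopamine transporter, had 97 and 779 counts (6.0 and 53.0 CPM, 8.88-fold higher, 7.19 to 11.1). The nicotinic receptor subunits Chrna6 (10 and 74 counts, 8.19-fold, 4.21 to 17.8) and Chrnb3 (14 and 67, 5.29-fold, 2.95 to 10.2) and the midbrain factor En1 (4 and 28, 7.74-fold, 2.71 to 30.4) were higher by a similar amount. Chrna6, Chrnb3 and En1 were below 1 CPM in the NP library and passed the filter on the mean only through the LP library. Their positive sign was therefore fixed by the filter. Th, the first enzyme of dopamine synthesis, which arcuate and other hypothalamic neurons also make, had 735 and 834 counts and was not past the fold (1.25-fold, 1.14 to 1.39), and Ddc, the second enzyme, had 1050 and 1306 (1.38-fold, 1.27 to 1.49). Serotonin neuron genes were near 0 in both libraries, with 6 and 5 counts of Tph2. All 9 tested thalamic genes were positive with a median of 0.44, and 1, Rgs16, was past the fold (1.57-fold, 1.38 to 1.79).

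**Figure D3:**
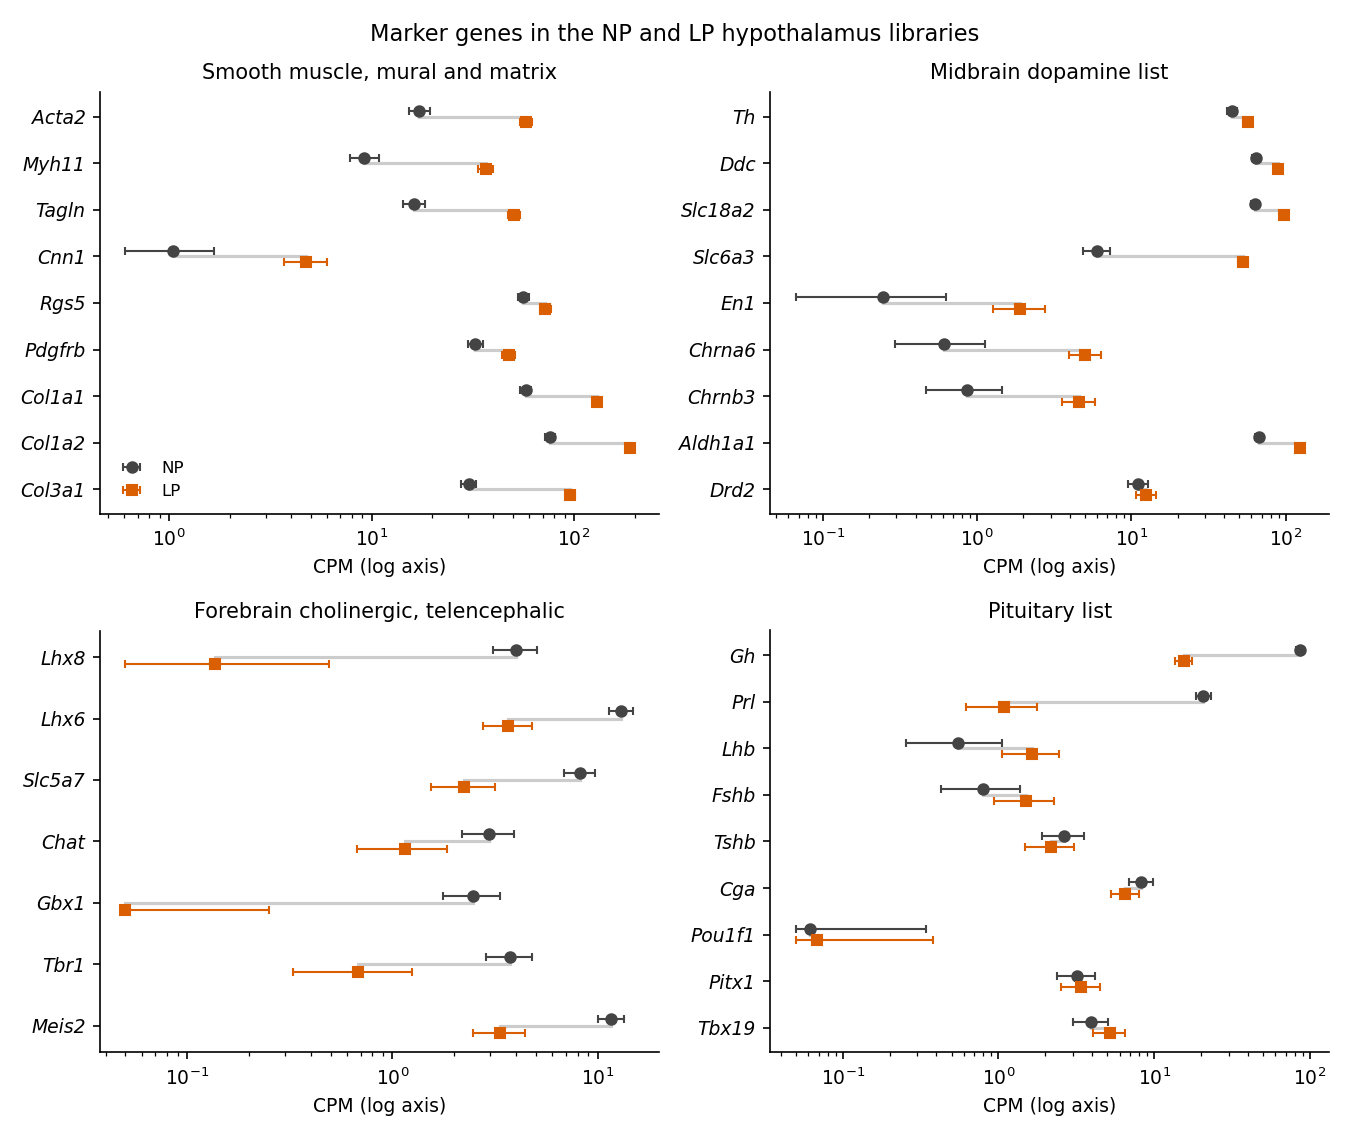
CPM (log axis) in the NP (circles) and the LP (squares) hypothalamus library of vascular and matrix, midbrain dopamine, forebrain cholinergic and telencephalic, and pituitary genes, with exact 95% Poisson intervals. Values below 0.05 CPM are drawn at 0.05, which applies to Gbx1 with 0 counts in the LP library. Slc6a3, Chrna6, Myh11 and Acta2 are higher in LP, and Gh, Prl, Lhx8 and Gbx1 are lower.

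Vascular and meningeal genes were higher in the LP library. Of 16 smooth muscle, pericyte and meningeal genes, 12 were higher, against 3.46% of all genes, and all 16 positive, with a median log2 ratio of 1.08 and a summed level of 1018 CPM in the NP and 2061 CPM in the LP library. Acta2, smooth muscle actin, had 280 and 854 counts (3.37-fold higher, 2.94 to 3.88), Myh11, smooth muscle myosin, 150 and 539 (3.98-fold, 3.31 to 4.80), and Col3a1, a fibrillar collagen, 490 and 1407 (3.18-fold, 2.86 to 3.53). The pericyte genes Rgs5 (915 and 1060, 1.28-fold, 1.17 to 1.40) and Pdgfrb (530 and 701, 1.46-fold, 1.30 to 1.64) were not past the fold. Of 10 contractile genes and of 15 genes of meningeal fibroblasts and their matrix, 2 lists put together after the values were seen, all were higher, with medians of 1.53 and 1.25. Because of that choice, these 2 lists add no separate support. They also share members with the list of 16, such as Acta2, Myh11, Tagln and Cnn1 (contractile) and Col3a1 (matrix). Fn1, fibronectin, had 1323 and 3177 counts (2.66-fold, 2.49 to 2.83), and Foxc2, a transcription factor of the meninges, 63 and 157 (2.76-fold, 2.05 to 3.75).

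Endothelial genes were higher by less. Of 14 tested, 8 were past the fold, against 3.46% of all genes, and 13 positive, with a median log2 ratio of 0.62. Abcb1a, an efflux pump of the blood-brain barrier, had 250 and 474 counts (2.10-fold higher, 1.80 to 2.46), Cdh5, the endothelial cadherin, 231 and 401 (1.92-fold, 1.63 to 2.27), and Pecam1 264 and 397 (1.66-fold, 1.42 to 1.95). Cldn5, the tight junction protein that defines brain endothelium, was at 26.5 and 26.8 CPM. Blood genes went the other way: all 5 tested globin and related genes were negative with a median of -0.54, and the summed level was 2090 CPM in the NP and 1422 CPM in the LP library. Hba-a2 (7220 and 4349 counts) was just past the fold and Hba-a1 (10895 and 6671, 1.48-fold) was not, and their transcripts are 99.8% identical. Blood genes had negative medians in the other 4 pairs as well, from -0.79 to -0.41.

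Several abundant secreted and transport genes were higher too, and were picked out after their values were seen. Ptgds, the prostaglandin D synthase of meninges and oligodendrocytes, had 43847 counts in the NP and 72884 in the LP library and was 1.84-fold higher (1.82 to 1.86), the most abundant of all genes called. Apod, a lipid carrier, had 3726 and 5647 counts (1.68-fold, 1.61 to 1.75), Fmod, a collagen-binding proteoglycan, 1475 and 3163 (2.37-fold, 2.23 to 2.52), and Vtn, vitronectin, 1820 and 3704 (2.25-fold, 2.13 to 2.38). Of 10 tested genes of retinoic acid signalling, a list put together after the values were seen, all were positive and 5 higher. Over all genes 3.46% were higher. The median log2 ratio of the list was 0.61. Cyp26b1, which breaks retinoic acid down, had 140 and 472 counts (3.73-fold, 3.08 to 4.54), and Aldh1a2, which makes it and is a meningeal gene, 573 and 1082 (2.09-fold, 1.89 to 2.32).

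Genes of neurons as a whole and of most glia had median log2 ratios near 0 and no calls. Only 3.46% of all genes were higher and 0.889% lower, so 0 calls in lists of this size is close to that share. None of 11 pan-neuronal genes was called (median log2 ratio -0.06), with Snap25 at 1126 and 1090 CPM and Rbfox3 at 114 and 116 CPM. None of 12 astrocyte genes (median 0.03), of 12 microglia genes (median 0.05) or of 8 genes of GABA and glutamate transmission (median -0.02) was past the fold. Gad1, which makes GABA, had 5948 and 4721 counts (1.14-fold lower, 1.10 to 1.18). Myelin genes were the exception: all 18 were negative, with a median of -0.36 and a summed level of 6555 CPM in the NP and 4820 CPM in the LP library. Mobp (14368 and 8503 counts, 1.53-fold lower, 1.49 to 1.57) and Opalin (271 and 155, 1.58-fold, 1.29 to 1.94) were past the fold, and Mbp (1.35-fold, 1.33 to 1.37) was not. Oligodendrocyte precursor genes had a median of 0.26 with 1 of 6 higher, Bmp4 (87 and 161 counts, 2.05-fold, 1.57 to 2.69).

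Cells that line the ventricle gave small values, beside 3.46% of all genes higher and 0.889% lower. All 9 tanycyte genes were positive with a median log2 ratio of 0.34; Dio2, which activates thyroid hormone, was 1.55-fold higher (1.31 to 1.82) and Nes 1.51-fold (1.30 to 1.76), while the tanycyte factor Rax had 48 and 44 counts. Of 7 ependymal genes 1 was lower, Ccdc153 (200 and 107 counts, 1.69-fold, 1.33 to 2.16). Ttr, the most abundant choroid plexus mRNA, was at 3.63 and 2.65 CPM, and 2 of 10 tested choroid genes were higher, Cldn2 and Kl.

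Signals of growth and energy balance leaned higher in the LP library. Of 26 genes of insulin, IGF and leptin signalling, 6 were higher, against 3.46% of all genes, all 26 were positive and the median log2 ratio was 0.30, whereas the medians of the other 4 pairs lay between 0.02 and 0.09. Igfbp2, an IGF-binding protein, had 829 and 1777 counts (2.37-fold higher, 2.18 to 2.58). Igf2, a fetal growth factor whose mRNA in adult brain comes from meninges, vessels and choroid plexus, had 8263 and 13708 (1.83-fold, 1.79 to 1.89), Igfbp5 4063 and 5741 (1.56-fold, 1.501 to 1.63) and Igfbp4 467 and 675 (1.60-fold, 1.42 to 1.80). The intracellular members lay nearer to 1, with Irs4 at 1.16-fold (1.10 to 1.22) and Akt1 at 1.02-fold (0.969 to 1.07). Igf2 and its imprinted neighbour H19 (51 and 78 counts, 1.69-fold, 1.17 to 2.46) were 2 of the 3 higher genes among 32 imprinted genes tested, with Cdkn1c (1.59-fold, 1.21 to 2.10), and the median of the imprinted genes was -0.02. Igf2 is also a member of the smooth muscle, pericyte and meningeal list, so its counts enter the values of both lists. Other vascular and meningeal genes were higher in the same library, and their part in the ratios of growth genes was not tested. None of 13 DNA methylation genes was called, with Dnmt3a at 116 and 114 CPM. Over all genes 4.35% were called in either direction, so 0 calls in a list of this size is close to that share.

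Hormone-responsive genes were mixed, beside 3.46% of all genes higher and 0.889% lower. Of 17 glucocorticoid receptor and target genes, Fkbp5 (604 and 857 counts, 1.57-fold higher, 1.41 to 1.75) and Zbtb16 (142 and 250, 1.95-fold, 1.58 to 2.41) were higher, and Mt2, a metallothionein, was lower (2557 and 1453, 1.59-fold, 1.49 to 1.70). Tsc22d3, another target, was not past the fold (1.17-fold, 1.10 to 1.25). Of 12 thyroid axis genes 1 was higher and 2 lower, and these were Dio2, Trh and Trhr. None of 9 sex steroid axis genes (median 0.11) and none of 19 clock genes was past the fold, though 17 of the clock genes were positive (median 0.18). Of 23 genes of the ATF4 amino acid response, which low amino acids switch on, 2 were higher, Nupr1 (220 and 396, 1.99-fold, 1.69 to 2.36) and the cystine transporter Slc7a11 (1006 and 1461, 1.61-fold, 1.48 to 1.74), and the median was 0.01.

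Antigen presentation and interferon genes were higher in the LP library. All 22 were positive and 10 were past the fold, against 3.46% of all genes, with a median log2 ratio of 0.58 and a summed level of 297 CPM in the NP and 515.9 CPM in the LP library. H2-D1, a class I heavy chain, had 510 and 1735 counts (3.76-fold higher, 3.41 to 4.16), the class II chains H2-Ab1 (120 and 236, 2.18-fold, 1.74 to 2.73) and H2-Aa (200 and 360, 1.99-fold, 1.67 to 2.38) were higher by less, and Ifit1, an interferon-induced gene, had 43 and 103 (2.65-fold, 1.84 to 3.88). B2m, the class I light chain, was not past the fold (1.25-fold, 1.17 to 1.35). Endothelial genes, which also carry class I molecules, were higher in the same library, microglia genes had a median of 0.05, and the part of either in these values was not tested. H2-D1 shares 85.2% of aligned bases with H2-Q2 and 91.2% with H2-K1, and how reads that fit more than 1 of them were counted is not given. H2-D1, H2-K1, H2-Aa, H2-Ab1 and the heat shock genes Hspa1a and Hspa1b lie in 1 stretch of chromosome 17 (33996017 to 35346762), picked after the values were seen. Of 67 genes tested there, 9 were higher and 0 lower (13.4%, median log2 ratio 0.03). On the rest of the chromosome 4.11% of 705 were called. The stretch was drawn from H2-K1 to H2-Q2, both of them called higher. That choice raises its share of calls, so the 2 shares are not a fair comparison. What the shared location contributes was not tested.

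Of 22 cytosolic heat shock genes, 5 were higher, against 3.46% of all genes, and 17 positive, with a median log2 ratio of 0.22. The promoters of the 3 members with the highest ratios are given because these genes were higher together. Hspa1a at chr17:34972107-34972406 and Hspa1b at chr17:34959189-34959488, both on the minus strand, and Hspb1 at chr5:135887669-135887968 on the plus strand are RefSeq windows of GRCm38.p6, as above. Capitals mark matches to GAANNTTC or TTCNNGAA, paired units of the heat shock element, searched on both strands and held by 15.1% of the 32851 promoters and by 12 of the 18 heat shock genes with a promoter in the table. The windows of Hspa1a and Hspa1b differ at 4 of 300 positions, with 1 match each, and Hspb1 holds 2.
Hspa1a: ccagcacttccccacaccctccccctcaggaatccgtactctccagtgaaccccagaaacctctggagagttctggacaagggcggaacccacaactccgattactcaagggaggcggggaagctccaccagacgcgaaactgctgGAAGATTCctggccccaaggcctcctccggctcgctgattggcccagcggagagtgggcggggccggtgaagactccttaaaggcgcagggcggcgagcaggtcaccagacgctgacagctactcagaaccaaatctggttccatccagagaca
Hspa1b: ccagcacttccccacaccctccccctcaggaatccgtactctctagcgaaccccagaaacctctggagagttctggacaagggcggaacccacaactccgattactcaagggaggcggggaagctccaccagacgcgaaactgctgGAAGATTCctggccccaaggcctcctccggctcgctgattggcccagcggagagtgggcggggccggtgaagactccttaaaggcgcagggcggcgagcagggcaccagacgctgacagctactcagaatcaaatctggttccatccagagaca
Hspb1: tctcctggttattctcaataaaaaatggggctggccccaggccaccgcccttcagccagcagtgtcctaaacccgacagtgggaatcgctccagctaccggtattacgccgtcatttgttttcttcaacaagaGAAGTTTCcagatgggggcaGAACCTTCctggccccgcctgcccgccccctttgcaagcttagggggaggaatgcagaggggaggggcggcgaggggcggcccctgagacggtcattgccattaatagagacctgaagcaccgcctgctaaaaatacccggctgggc

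Hspa1b and Hspa1a encode the inducible HSP70 chaperone, and their transcripts are 99.1% identical over 2200 bases, so they are best read as a pair. Hspa1b had 220 counts in the NP and 2137 in the LP library (10.8-fold higher, 9.35 to 12.4), and Hspa1a 241 and 1525 (7.00-fold, 6.11 to 8.05). Hspb1, a small chaperone, had 128 and 330 (2.85-fold, 2.32 to 3.53), Dnajb1, the HSP40 partner of HSP70, 1340 and 2524 (2.08-fold, 1.95 to 2.23), and Bag3, a co-chaperone, 378 and 634 (1.86-fold, 1.63 to 2.11). The constitutive chaperones Hspa8 (1.14-fold, 1.12 to 1.16) and Hsp90ab1 (1.19-fold, 1.17 to 1.21) were not past the fold. None of 13 chaperones of the endoplasmic reticulum was called, against 4.35% of all genes. Hspa5 was at 1.21-fold (1.17 to 1.25), and 12 of the 13 were positive. The cold-inducible mRNA Cirbp had 2121 and 1499 counts (1.28-fold lower, 1.20 to 1.37). The log2 ratio of Hspa1b was positive in the other 4 pairs too: 2.64 and 1.93 in prefrontal cortex and hippocampus of males and 1.01 and 0.55 in females.

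Of 31 immediate early and activity genes, which neurons switch on within minutes of firing, 7 were higher, against 3.46% of all genes, and 26 positive, with a median log2 ratio of 0.22. Nr4a3 had 254 and 599 counts (2.61-fold higher, 2.25 to 3.03), Ptgs2 16 and 38 (2.63-fold, 1.43 to 5.05), and Jun 917 and 1366 (1.65-fold, 1.51 to 1.79). Nr4a2, which is also a dopamine neuron factor, had 212 and 405 (2.11-fold, 1.79 to 2.51). Fos (1058 and 1182 counts, 1.24-fold, 1.14 to 1.34) and Egr1 (1980 and 1895, 1.06-fold, 0.994 to 1.13) were not past the fold. The medians of the list in the other pairs were 0.34 and 0.50 in prefrontal cortex and hippocampus of males and 0.95 and 0.47 in females.

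**Figure D4:**
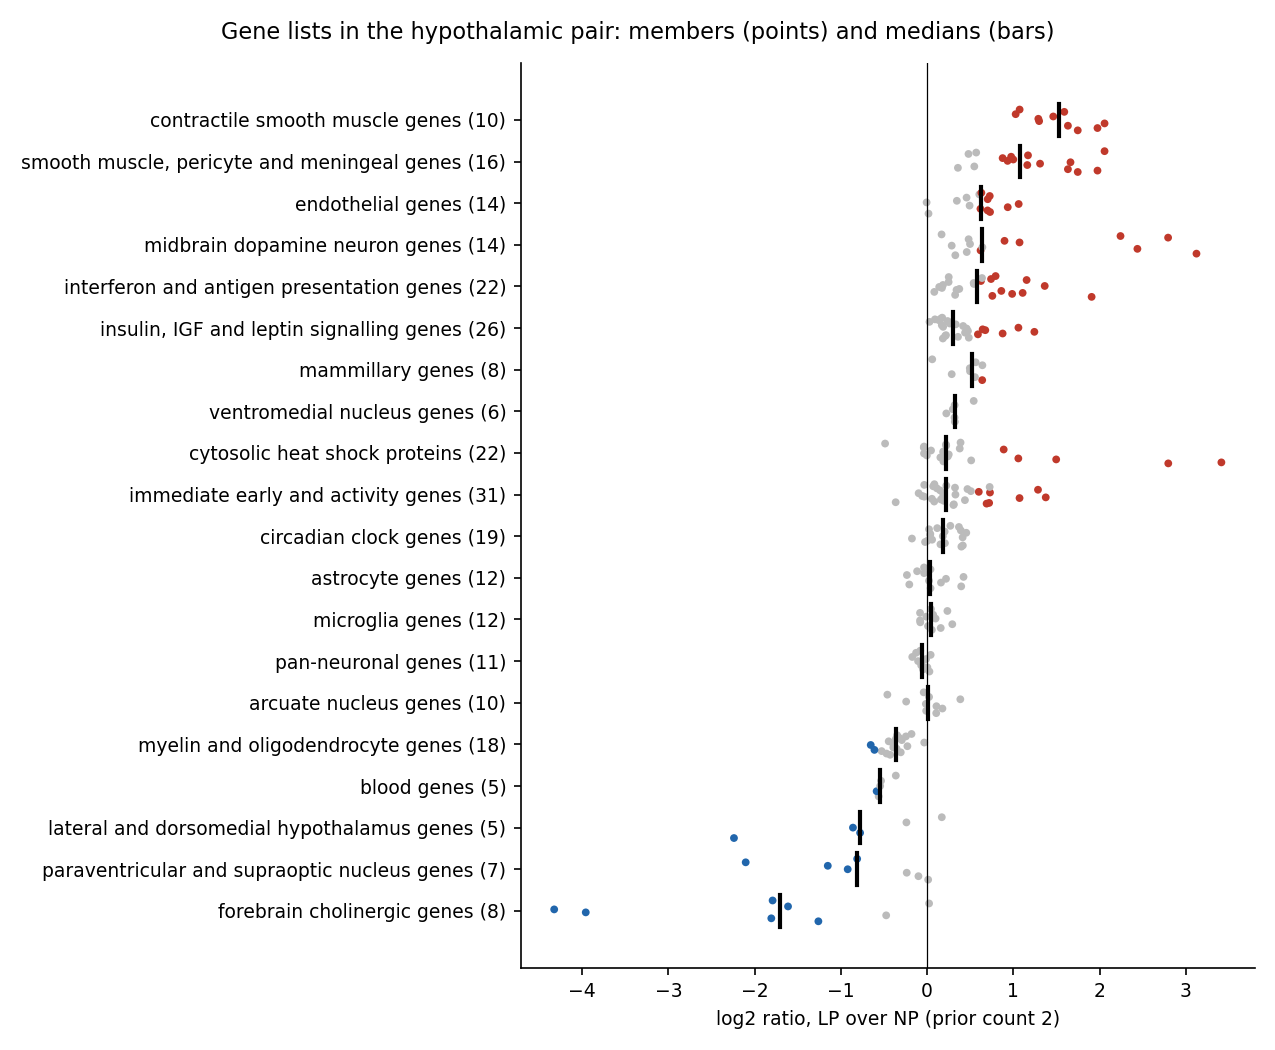
Log2 ratio of the LP over the NP hypothalamus library for every tested member of 20 gene lists (rows, with the number tested), with points red for higher, blue for lower and grey for not past the fold, the list median as a bar, and a line at 0. Contractile, antigen presentation and dopamine neuron genes lie to the higher side. Paraventricular and supraoptic, lateral hypothalamic and forebrain cholinergic genes lie to the lower side, and the arcuate and pan-neuronal genes around 0. The contractile and forebrain cholinergic lists were put together after the values were seen.

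Set beside the other 4 pairs, which share no library with the hypothalamic pair, the genes called in hypothalamus had the same sign in part. The labels do not say whether libraries of different regions came from the same animals or litters. The pairs may therefore not be independent of each other. Of the 145 lower genes, 67.6% of the 105 tested in male prefrontal cortex were negative there. The shares were 57.4% in female prefrontal cortex, 68.1% in male hippocampus and 63.5% in female hippocampus, where between 49.8% and 50.4% of all genes were negative. Of the 565 higher genes, 43.2% were positive in male prefrontal cortex, and 68.7%, 59.1% and 55.8% in the other pairs in the same order, where between 49.6% and 50.2% of all genes were positive. The same sign in all 5 pairs was found for 46 of 302 higher genes (15.2%) and 23 of 65 lower genes (35.4%) that could be read in all, and for 13.3% of all 9559 genes. The library of female NP hippocampus lacked counts for 19598 genes, which limits the genes that could be read in all pairs.

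In all, 10 genes higher in hypothalamus and 3 lower were past the fold the same way in at least 4 of the 5 pairs. In the other pairs 0.736% of genes were higher and 1.66% lower in male prefrontal cortex, and 0.88% and 0.485% in female prefrontal cortex. In hippocampus the shares were 0.739% and 0.488% in males and 0.493% and 0.549% in females. The higher ones were Hspa1a, Hspa1b, Dnajb1, Fosl2, Nr4a2, H2-D1, the glutamine synthetase pseudogene Glns-ps1, which is 96.8% identical to Glul, and the uncharacterised 1500004A13Rik, Gm11892 and Gm12411. The lower ones were Gm10704, Ndufs5, a subunit of respiratory complex I, and Nudt13, a mitochondrial hydrolase of the Nudix family. Nudt13 had 104 and 22 counts in hypothalamus (4.27-fold lower, 2.68 to 7.11), with log2 ratios of -2.005 there and -1.87, -1.73, -1.71 and -1.85 in the other pairs. Ndufs5 had 852 and 401 counts (1.92-fold lower, 1.70 to 2.17), and its transcript is 99.4% identical to the pseudogene BC002163. Ribosomal Rps3a1 was lower in the LP library (5435 and 2573 counts) while its copy Rps3a3 was higher (694 and 1672), at 98.9% identity, so neither direction can be assigned to 1 locus. The same holds for Gm3383 and Gm3194, which are 100% identical over 1813 bases, and Gm26703 overlaps Sparcl1 on the opposite strand.

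**Figure D5:**
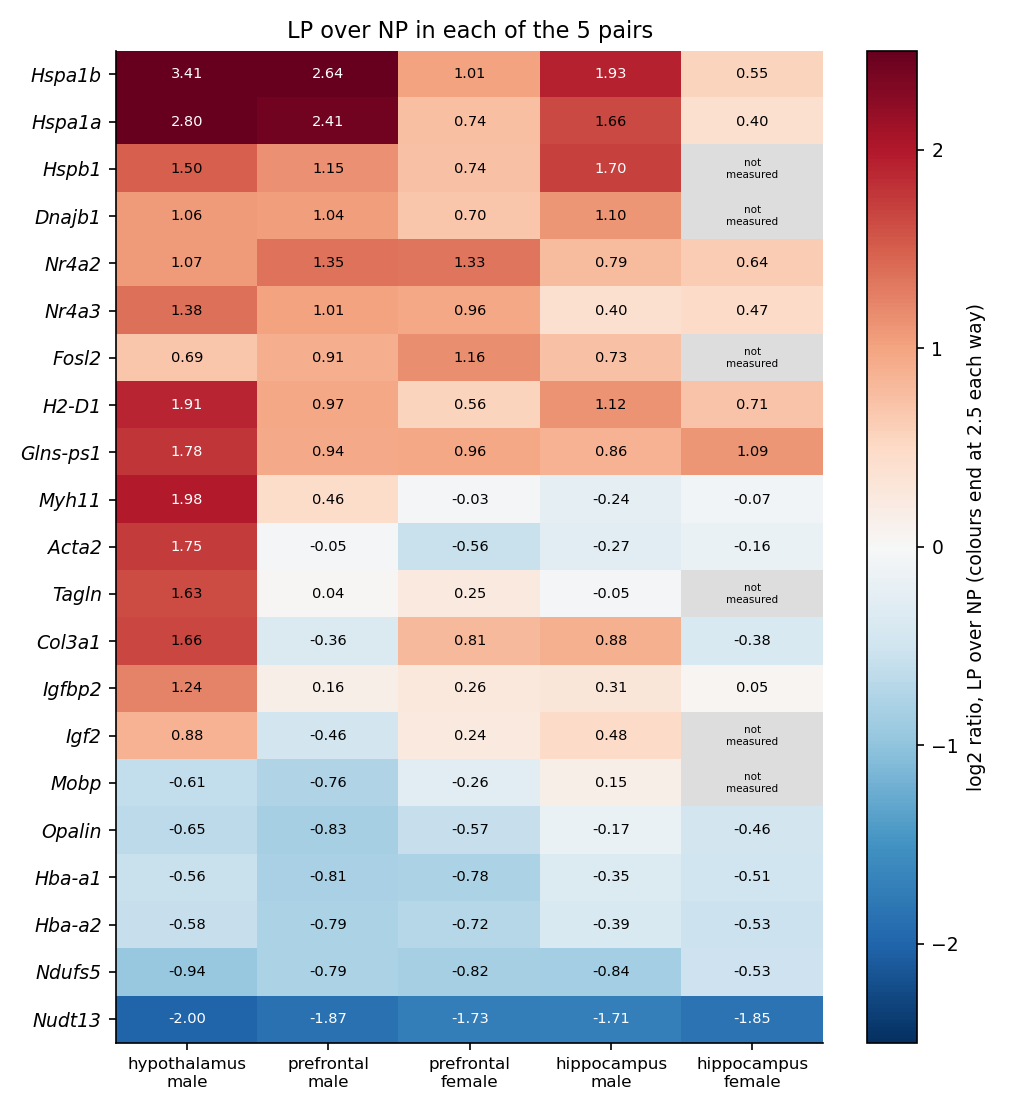
Log2 ratio of LP over NP (colour and printed value, red for higher in LP) for 21 genes (rows) in each of the 5 pairs of libraries (columns), with cells left grey where a gene was not measured in the female hippocampus pair. Hspa1b is positive and Nudt13 negative in every pair, whereas Myh11 and Acta2 are past the fold in hypothalamus and not past it in the other 4, with Myh11 at 0.46 in male prefrontal cortex.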

How the data were processed

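RNA of prefrontal cortex, hippocampus and hypothalamus was sequenced from TruSeq libraries made with 1 µg of total RNA, 1 library per region, sex and diet. Per the submitters' processing notes, reads were handled with CASAVA and FastQC 0.10.1 and aligned with STAR 2.5.0a to mm10. The table deposited by the authors holds raw counts for Ensembl genes, not normalized. How reads were counted (tool, strand, shared reads, annotation) is not given in the sources used here, so overlapping genes and near-identical copies are uncertain.

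Gene IDs of 47310 of the 47729 genes were found in GENCODE M21, the source of names and coordinates. Counts of the pair were scaled by TMM (edgeR 4.0.16, R 4.3.3) to CPM. Log2 ratios used a prior count of 2, and folds have exact 95% binomial intervals conditional on the total of both counts. A gene was called at a 1.5-fold difference of CPM with separate exact 95% Poisson intervals and a mean of at least 1 CPM. Intervals and limits for 0 counts cover counting error only. No test was run, since each group has 1 library. The calling step was tried on simulated counts drawn with counting error only, so that trial says nothing of the spread between animals or dissections. Transcripts were compared with blastn 2.17.0.

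Genes were named by rule: the 10 largest ratios in each direction at a mean of at least 5 CPM, every peptide precursor measured, and for each other list up to 5 members past the fold, up to 2 not past it, and its defining markers. Not every gene named by this rule is reported here. Some further list members were named as examples after their values were seen. The members and lists were chosen with earlier results of these data known. Of the lists, 49 were written in the plan and 5 were added after the values were seen. Other scalings (DESeq2 1.42.0 median of ratios, total counts), filters, folds, intervals and prior counts were tried. Female NP hippocampus lacks counts for 19598 genes, which were left out of its pair only.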

Additional observations from a re-analysis of the deposited data

Results flagged for a closer look

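In the hypothalamic pair the median log2 ratio of 22 interferon and antigen presentation genes was 0.584, and all 22 were positive. In the other 4 pairs the medians were all negative: -0.14 and -0.02 in prefrontal cortex and hippocampus of males and -0.11 and -0.10 in females. Of these genes 18 and 14 could be tested in males and 15 and 13 in females, so the medians are over different members. The median of the 16 other neuropeptides tested was -0.022 in hypothalamus and positive in the other 4 pairs, from 0.14 to 0.45, over 10 or 11 members. These values are listed because hypothalamus lay on 1 side of 0 and every other pair on the other, and the difference between regions was not tested. The neuropeptide median is close to that of all genes (-0.001).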

How the results depend on the processing

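No paired analysis was possible because the hypothalamus has 1 library a diet and the labels give no replicate numbers. A fold of 2 left 233 higher and 60 lower genes, a mean of at least 5 CPM left 76 lower genes (and 421 higher), and 99% Poisson intervals left 87 lower genes (and 426 higher); these settings tighten the call and can only remove genes. Total counts gave 566 higher and 142 lower genes, the median of ratios 550 and 155, and no filter on CPM 590 and 167. Of 212 list medians under alternative settings, 4 moved, all with a mean of at least 5 CPM: paraventricular and supraoptic genes -0.52, lateral and dorsomedial genes -0.51, pituitary genes -2.47, and GABA and glutamate genes -0.11. Another 3 medians near 0 changed sign: hypothalamic and telencephalic transcription factors became 0.02 and 0.09 with a mean of at least 5 CPM, and arcuate nucleus genes became -0.003 with the median of ratios. Of 648 ratios of named genes none moved by more than the width of its counting interval to 1 side. For Gbx1, with 0 counts in the LP library, this width has no limit, so its ratio could not be seen to move. The largest shift was 1.945 in log2, with a prior count of 0.5. The median over all genes was 0.0004 with total counts and -0.0101 with the median of ratios, so these scalings could move ratios only a little. The calls of Hba-a2 and Nes, which lie at the border of 1.5-fold, differed under another scaling. Depth limits the genes with few counts in 1 library, such as Lhx8, Ucn3 and En1, whose folds have wide intervals. With 1 library a side, the spread between animals is not measured by any of these settings.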

Other observations

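The remaining gene lists held few calls, beside 3.46% of all genes higher and 0.889% lower. Of 10 tested genes of dopamine synthesis, transport and receptors, Slc6a3 and Slc18a2, the vesicular monoamine transporter (1025 and 1425 counts in the NP and LP hypothalamus libraries, 1.54-fold higher, 1.42 to 1.67), were higher, and Drd5, a dopamine receptor, was lower (39 and 15 counts, 2.35-fold, 1.27 to 4.59). Drd2, the receptor on dopamine neurons themselves, had 180 and 183 counts and was not past the fold. Of 9 serotonin receptors tested, Htr2a was higher (85 and 151 counts, 1.97-fold), while Htr2c, the receptor through which serotonin restrains feeding, was not past the fold (1156 and 903 counts, 1.16-fold lower, 1.06 to 1.26). None of 3 tested habenular and interpeduncular genes was called, with Chrna3 at 77 and 96 counts.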
